A study of Mus musculus with 17 samples.

Results

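The genes described here are 8 of the 56691 gene rows of the count table: *Olig1*, *Olig2*, *Nkx2-2* and *Sox10*, which encode transcription factors of the oligodendrocyte lineage, *Pdgfra* and *Cspg4*, which encode surface proteins of oligodendrocyte precursor cells, and *Mbp* and *Cnp*, which encode proteins of myelin. They were chosen by symbol and not by a cut on their values, though earlier results of these data were known. Each stands on 1 row of the table, and all 8 passed the filter on low counts in each comparison. Astrocytes were purified by immunopanning from the brains of C57BL/6 mice at postnatal day 2, taken without their olfactory bulbs, cerebellum and meninges. Cells were passed over dishes that deplete CD45+ cells (microglia and macrophages) and O4+ cells (oligodendrocyte precursor cells), were then captured on HepaCAM, and were grown in a serum-free medium with heparin-binding EGF-like growth factor. In the first experiment, 3 cultures received SAG, a small molecule that activates the hedgehog transducer Smoothened, at 500 ng/ml after 3 days in vitro for 3 days, and 3 cultures received its solvent DMSO. In the second, 4 cultures received FGF2, 3 received FGF10 (each at 50 ng/ml) and 4 received PBS after 2 days in vitro for 7 days. The study's methods count 3 FGF2 cultures, and all 4 that the labels list were used. The columns of the table name the SAG libraries for SHH, although the labels give SAG.

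OLIG2 and its relative OLIG1 are basic helix-loop-helix factors that specify and mature oligodendrocytes, and OLIG2 is also found in astrocyte precursors and in some astrocytes. In the embryonic ventral neural tube, hedgehog signaling induces *Olig2* and *Nkx2-2*, and SOX10 then drives the genes of the oligodendrocyte program, up to those of myelin. PDGFRA is the receptor through which PDGF drives division of precursor cells, CSPG4 (NG2) is a proteoglycan on the same cells and on pericytes, MBP compacts the myelin sheath, and CNP is a phosphodiesterase of its cytoplasmic channels.

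*Olig2* and *Olig1* lie on the plus strand of chromosome 16 (GRCm38), at chr16:91225457-91228677 and chr16:91269772-91271933. They are 41094 bases apart, with no protein-coding gene annotated between them. *Nkx2-2* is on the minus strand at chr2:147177546-147194243, *Sox10* on the minus strand at chr15:79154908-79165240, *Pdgfra* on the plus strand at chr5:75152292-75198215, *Cspg4* on the plus strand at chr9:56865033-56899870 and *Cnp* on the plus strand at chr11:100574904-100591729. Promoter sequence from RefSeq (GRCm38.p6) was at hand for 5 of the 8 genes. The 250 bases before the start sites of the 2 genes that hedgehog signaling is known to induce in the neural tube are shown here because both had higher values in every SAG library than in any DMSO library. The *Olig2* window is chr16:91225300-91225549, plus strand, and the *Nkx2-2* window is chr2:147186403-147186652, minus strand. Both follow RefSeq's start sites, which lie inside the gene spans given above and not at their 5ʹ ends. Capitals mark the letters GACCACC.
Olig2: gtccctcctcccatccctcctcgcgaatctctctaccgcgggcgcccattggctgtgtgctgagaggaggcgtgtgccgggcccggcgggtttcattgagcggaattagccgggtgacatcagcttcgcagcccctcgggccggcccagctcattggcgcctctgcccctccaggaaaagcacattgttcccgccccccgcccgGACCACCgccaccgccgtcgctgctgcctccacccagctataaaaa
Nkx2-2: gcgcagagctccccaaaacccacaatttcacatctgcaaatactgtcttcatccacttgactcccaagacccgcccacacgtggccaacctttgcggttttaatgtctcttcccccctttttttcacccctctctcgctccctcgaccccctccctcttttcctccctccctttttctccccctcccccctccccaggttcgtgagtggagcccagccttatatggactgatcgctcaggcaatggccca
GACCACCCA, the consensus that GLI factors bind, was searched on both strands and was found in 74 of 32851 promoter windows of this length (0.225%) and in none of the 5. GACCACC, the first part of it, was found in 770 windows (2.34%) and, of the 5, only in that of *Olig2*, on the plus strand 46 bases before the start site. A match is a description of the letters in this window and not a measured site.

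The 17 libraries held between 17481727 and 68342287 counts. Reads come from the 3ʹ end of each transcript, so the level of a gene is given as CPM (the count as a share of the library, scaled to a fixed total) without division by length, scaled by TMM over all 17 libraries. The cultures expressed the astrocyte markers: all 10 genes of the astrocyte list averaged at least 10 CPM, and their summed level lay between 4484 and 6784 CPM. None of 8 microglial, 4 endothelial or 4 fibroblast genes averaged 10 CPM, against 1 of 5 pericyte genes (*Pdgfrb*) and 5 of 10 neuronal genes. Of the oligodendrocyte lineage, the 8 genes described here, 11 of 14 further precursor genes and 8 of 16 further regulators also averaged at least 10 CPM. The target gene *Ptch1*, the hedgehog receptor that the pathway induces, had 81.9, 103 and 67.2 CPM in the DMSO libraries and 462, 482 and 461 CPM in the SAG libraries. It rose by 2.50 ± 0.22 (SE) on the log2 scale (edgeR's quasi-likelihood test, Benjamini-Hochberg adjusted p = 0.00173). In bulk libraries, more cells of a type and more RNA per cell cannot be told apart.

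*Olig1* was the only one of the 8 genes called in a comparison by the main test (adjusted p under 0.05), and it rose with SAG. *Olig2* and *Nkx2-2* had higher values and *Sox10* lower values in every SAG library than in any DMSO library, without passing the adjusted threshold. *Pdgfra*, *Cspg4*, *Mbp* and *Cnp* overlapped between SAG and DMSO. None of the 8 genes passed the adjusted threshold with FGF2 or FGF10, which does not show that they were unchanged. In the second experiment *Olig1* and *Olig2* differed more between replicates 1 and 2 and replicates 3 and 4 of every group than between the groups.

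**Figure D1:**
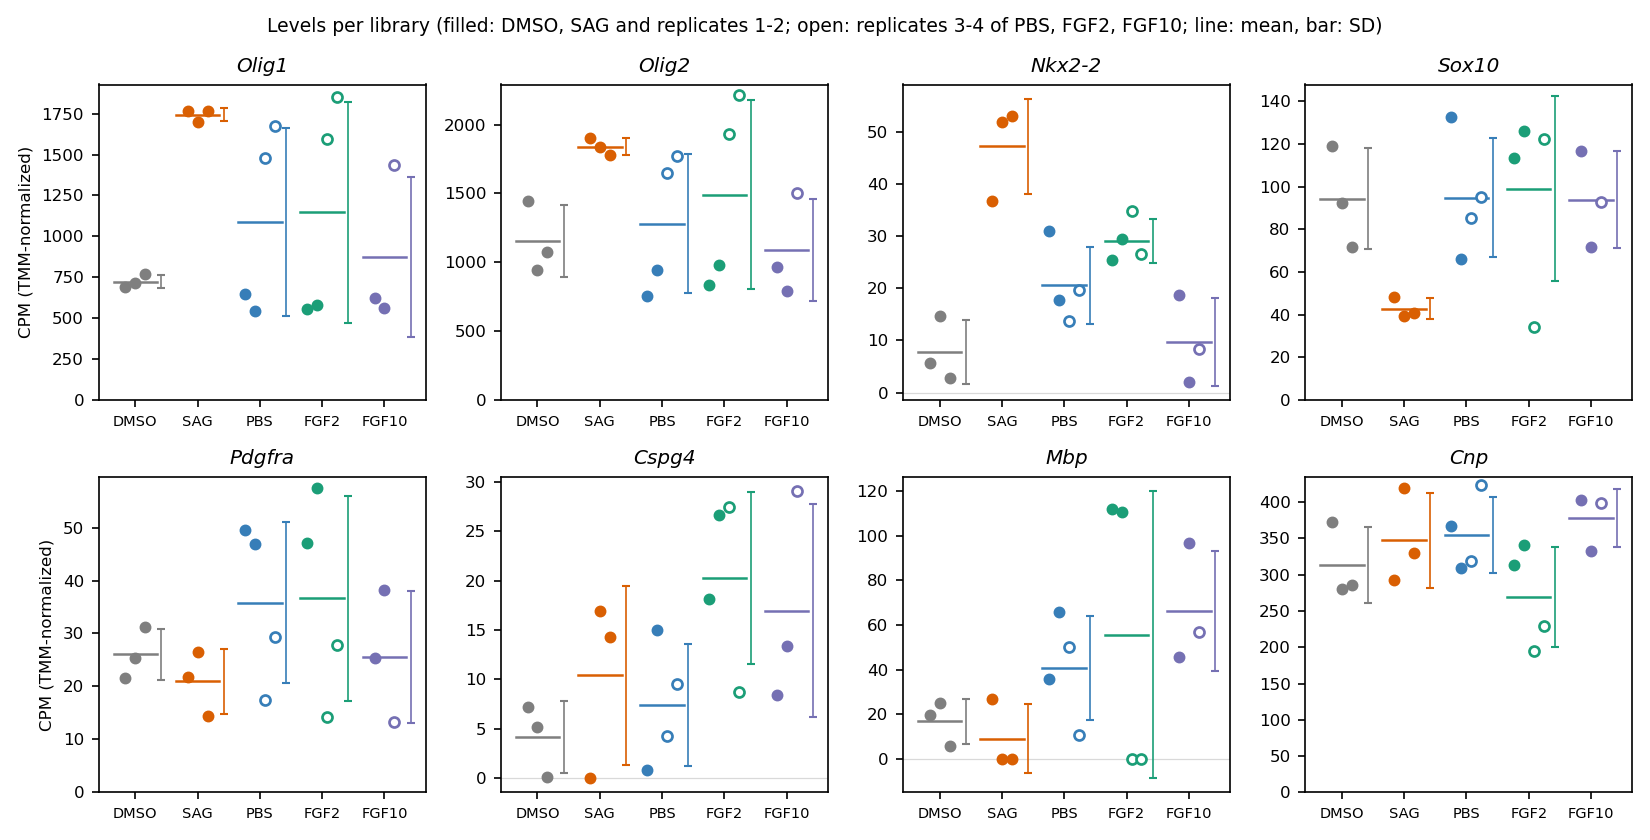
Level of each of the 8 genes in CPM (y axis, linear, a scale for each gene) in each of the 17 libraries, by group (x axis). Points are libraries, with replicates 3 and 4 of the FGF experiment as open points, and horizontal and vertical bars are the mean and SD of a group. The 3 SAG libraries sit between 1697 and 1766 CPM for *Olig1*, all above the DMSO libraries, and the PBS, FGF2 and FGF10 libraries fall at 542 to 650 CPM or at 1436 to 1854 CPM.

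*Olig1* stood at 689, 717 and 768 CPM in the DMSO libraries and at 1766, 1697 and 1764 CPM in the SAG libraries. The lowest SAG library was above the highest DMSO library, and the spread within each group was small beside the gap (725 ± 39.8 and 1742 ± 39.0 CPM, SD, n = 3 each). The rise was 1.29 ± 0.14 (SE) on the log2 scale, a fold of 2.44, with a Benjamini-Hochberg adjusted p of 0.00420 by edgeR's quasi-likelihood test. It ranked at 4 of 12538 genes by p, and 8 of those genes passed an adjusted p of 0.05 (0.0638%). The call was lost without DMSO 1 (adjusted p = 0.0863 by edgeR), SAG 2 (0.0618) or SAG 3 (0.0620), with a log2(fold-change) of at least 1.25 each time. It was also lost with all 5 groups in 1 fit (adjusted p = 0.479 by edgeR), where the spread of *Olig1* between the FGF libraries enters the error. *Gm15966*, a gene annotated on the other strand over *Olig1*, reached at most 0.369% of its counts in a library.

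*Olig2* had 1445, 943 and 1073 CPM in the DMSO libraries and 1903, 1839 and 1778 CPM in the SAG libraries. The groups did not overlap, but DMSO 1 was nearer to the SAG libraries than the other DMSO libraries were. The difference was 0.70 ± 0.17 (SE) on the log2 scale (unadjusted p = 0.00169, adjusted p = 0.369 by edgeR). Without a filter on low counts its adjusted p was 0.0375 by edgeR. The ratio of *Olig2* to *Olig1* counts was 2.10, 1.32 and 1.40 in the DMSO libraries and 1.08, 1.08 and 1.01 in the SAG libraries. It was lower in each SAG library than in each DMSO library, by 0.57 on the log2 scale, with a two-sided exact permutation p of 0.1, the smallest that 3 against 3 libraries allow.

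*Nkx2-2*, which encodes a homeodomain factor needed for precursor cells to differentiate on time, had 5.75, 14.7 and 2.82 CPM in the DMSO libraries and 36.7, 51.9 and 52.9 CPM in the SAG libraries. The groups were far apart, and the DMSO values also differed widely from each other. The difference was 2.63 ± 0.75 (SE) on the log2 scale, with an adjusted p of 0.457 by edgeR. The genes *Nkx2-2os* and *6430503K07Rik* overlap it on the other strand and had counts in 5 and 9 of the 17 libraries. Their largest shares of its counts, 281% and 252%, were in FGF10 2, where *Nkx2-2* had 98 counts. The highest *6430503K07Rik* count, 420, was in DMSO 1, where *Nkx2-2* had 279. The strand setting of the counting is not given in the sources used here.

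*Sox10* had 119, 92.3 and 71.7 CPM in the DMSO libraries and 48.4, 39.4 and 40.8 CPM in the SAG libraries. Every SAG library was below every DMSO library, the opposite direction to *Olig1*. The log2 difference was -1.11 ± 0.33 (SE), with an adjusted p of 0.492 by edgeR. These 4 genes were the ones of the 8 whose SAG and DMSO values did not overlap, as was true of 1772 of 12538 genes tested (14.1%), 747 higher and 1025 lower. DESeq2's Wald test, which called 394 of 13570 genes (2.90%), also called these 4 of the 8, with adjusted p of 1.55e-23 for *Olig1*, 7.61e-04 for *Olig2*, 0.00278 for *Nkx2-2* and 0.0286 for *Sox10*.

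**Figure D2:**
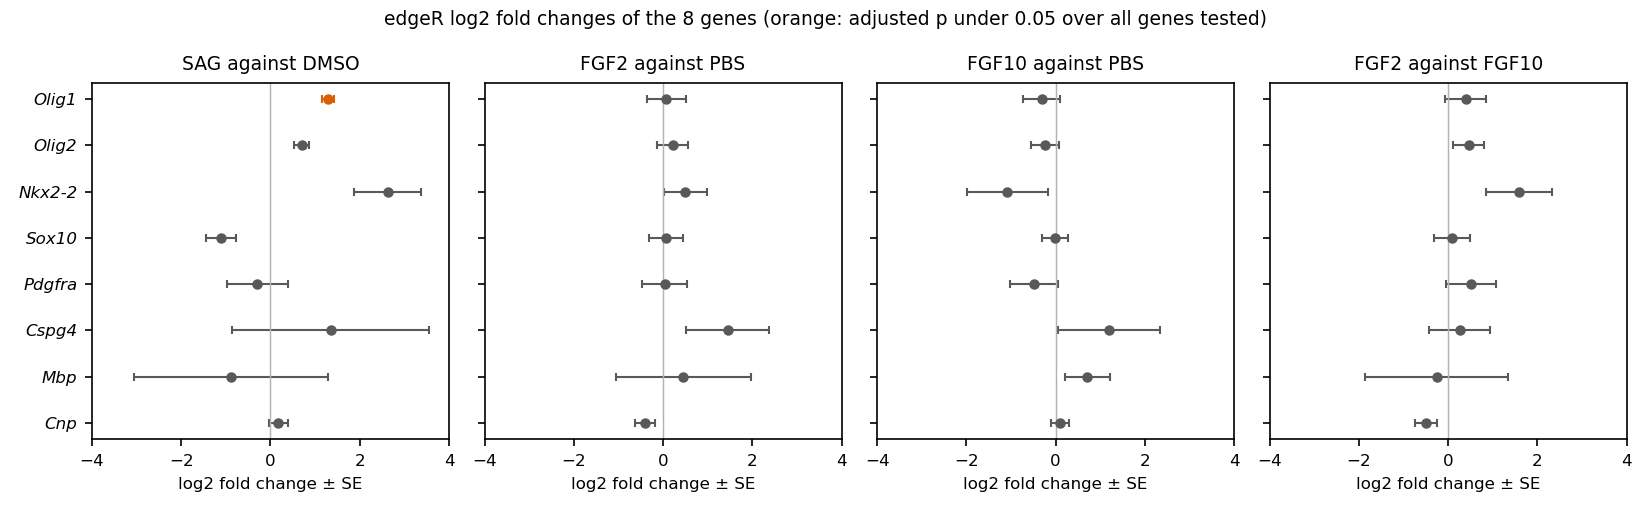
Log2(fold-change) of the 8 genes in each of the 4 comparisons, from edgeR's fit, with bars of 1 SE on either side and orange points for an adjusted p under 0.05. The *Olig1* value of SAG against DMSO, 1.29, is the only orange point, and the bars of *Cspg4* and *Mbp* are the widest in that comparison (SE 2.20 and 2.18).

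The surface genes of precursor cells overlapped between SAG and DMSO. *Pdgfra* had 21.6, 25.4 and 31.2 CPM in the DMSO libraries and 21.9, 26.6 and 14.4 CPM in the SAG libraries, a log2 difference of -0.29 ± 0.69 (SE). *Cspg4* had 7.17, 5.22 and 0.105 CPM in the DMSO libraries and 0.0286, 16.9 and 14.3 CPM in the SAG libraries. DMSO 3 and SAG 1 rested on 4 counts and 1 count, so the *Cspg4* difference of 1.35 ± 2.20 (SE) is set by single libraries. Adjusted p was 1.00 for both genes by edgeR.

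The myelin genes split into a steady and an uneven one. *Cnp* had 373, 280 and 286 CPM in the DMSO libraries and 292, 420 and 331 CPM in the SAG libraries, a log2 difference of 0.18 ± 0.21 (SE). The ranges overlapped. *Mbp* had 19.8, 24.9 and 5.62 CPM in the DMSO libraries and 26.8, 0 and 0 CPM in the SAG libraries. SAG 1 was the highest of the 6 libraries while SAG 2 and SAG 3 had no count at all in 68342287 and 30769042 counts. A count of 0 would allow up to 3 counts if reads were independent molecules, which they are not. The *Mbp* difference of -0.89 ± 2.18 (SE) had an adjusted p of 1.00 by edgeR, as did that of *Cnp*. *Dnajc7* overlaps *Cnp* on the other strand and was counted in all 17 libraries, at up to 114% of the *Cnp* count.

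*Gfap*, an astrocyte filament gene chosen here after its values were seen, had 140, 199 and 183 CPM in the DMSO libraries and 59.9, 36.0 and 25.3 CPM in the SAG libraries (log2 difference -2.08 ± 0.35, SE, adjusted p = 0.0854 by edgeR). Of the 10 astrocyte genes, 4 had a log2 difference above 0 and 6 below 0. None passed edgeR's test, and DESeq2 called 4: *Gfap*, *Sox9* and *Glul* lower and *Aldh1l1* higher. *Aldh1l1*, a folate enzyme gene used as an astrocyte marker and also named after its values were seen, had 152, 163 and 172 CPM with DMSO and 280, 353 and 201 CPM with SAG (log2 difference 0.80 ± 0.24, SE, adjusted p = 0.484 by edgeR). The summed level of the 10 genes was 5709 to 6155 CPM with DMSO and 4925 to 5463 CPM with SAG. That of the 10 neuronal genes was 82.8 to 243 CPM with DMSO and 26.0 to 76.0 CPM with SAG, and that of the 5 pericyte genes 19.1 to 24.0 and 0 to 11.7 CPM. The part of these in the *Olig1* difference was not tested. Of 20 myelin and mature oligodendrocyte genes, 8 averaged at least 10 CPM over the 17 libraries. Among the others, *Opalin* and *Ermn* had no count in any library, and *Mog* had counts in PBS 2 only, at 3.66 CPM.

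Of the wider lists of the lineage, no gene passed edgeR's test and 1 was called by DESeq2. Of 16 further regulators, 10 could be tested in SAG against DMSO and none passed. Their median log2(fold-change) was -0.17, with 9 of 10 below 0. Over all genes tested the median was -0.020, with 6402 of 12538 below 0. The chromatin remodeler *Chd7* had 494 ± 71.3 CPM with DMSO and 442 ± 85.1 CPM with SAG (SD, n = 3 each). Of 14 precursor genes, 13 were tested and none passed (median 0.087). Among them the phosphatase gene *Ptprz1* had 916 ± 62.7 and 957 ± 82.5 CPM (SD, n = 3 each) and the sulfatase gene *Sulf2* 65.4 ± 15.1 and 89.7 ± 22.2 CPM. Of 20 myelin and mature genes, 9 were tested by edgeR and none passed (median -0.53). DESeq2 called 1 of the 20, *Mag*, a myelin adhesion gene that did not pass edgeR's filter (DESeq2 adjusted p = 0.0408). It had 0, 4.06 and 16.6 CPM in the DMSO libraries and no count in any SAG library, so DMSO 1 was at 0 as well. The deacetylase gene *Sirt2* had 184 ± 36.0 CPM with DMSO and 266 ± 65.4 CPM with SAG (SD, n = 3 each).

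**Figure D3:**
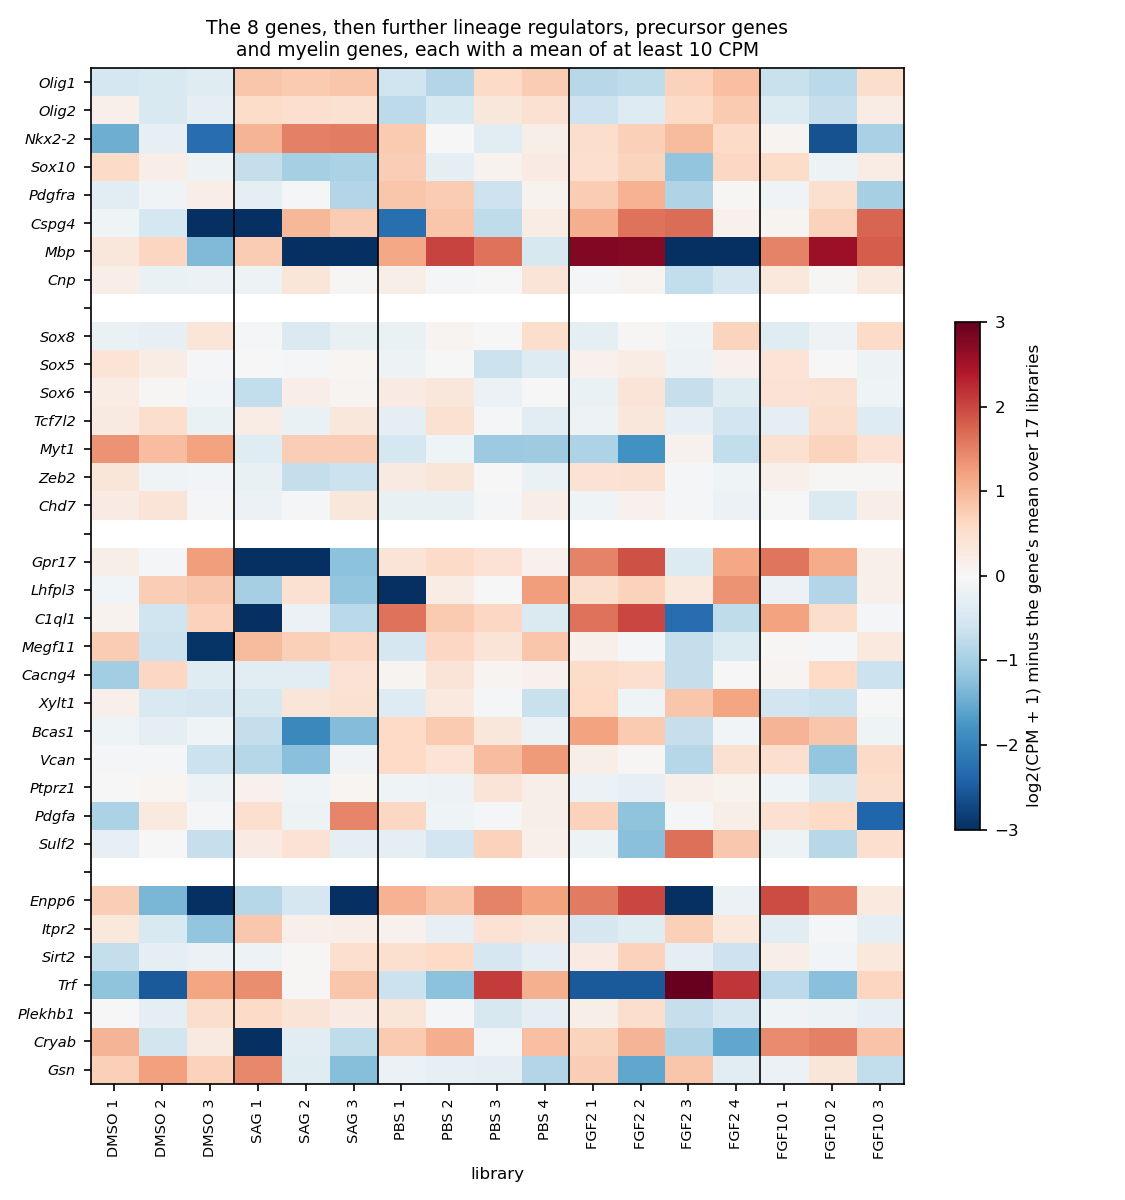
Level of the 8 genes and of further genes of the lineage (rows) in each of the 17 libraries (columns, by group), as the difference in log2(CPM + 1) from the mean of the gene over all libraries, with colors held at -3 and 3. The rows of *Olig1* and *Olig2* are high in the SAG libraries and in replicates 3 and 4 of the PBS, FGF2 and FGF10 groups, and the other rows do not share that pattern throughout.

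FGF2 was compared with PBS over 4 libraries each. *Olig1* had 650, 542, 1480 and 1674 CPM in the PBS libraries and 555, 584, 1595 and 1854 CPM in the FGF2 libraries. Both groups held a low pair and a high pair, replicates 1 and 2 against replicates 3 and 4. The log2 difference was 0.073 ± 0.44 (SE). *Olig2* had 754, 946, 1647 and 1771 CPM with PBS and 838, 982, 1932 and 2215 CPM with FGF2, the same order within each group, and differed by 0.22 ± 0.35 (SE). With the pair as a term in the fit, *Olig1* differed by 0.030 ± 0.12 and *Olig2* by 0.19 ± 0.12 (SE). The pairs were seen in the data, so these values are a description. *Nkx2-2* had 31.0, 17.7, 13.7 and 19.7 CPM with PBS and 25.5, 29.3, 34.8 and 26.5 CPM with FGF2 (0.50 ± 0.48, SE), and the highest PBS library lay within the FGF2 range. *Sox10* had 133, 66.3, 85.1 and 95.2 CPM with PBS and 113, 126, 34.4 and 122 CPM with FGF2, where FGF2 3 stood below the other 3 libraries of its group.

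Among the other genes, *Pdgfra* had 49.5, 47.0, 17.4 and 29.3 CPM with PBS and 47.0, 57.4, 14.2 and 27.9 CPM with FGF2. *Cspg4* had 0.857, 14.96, 4.28 and 9.55 CPM with PBS and 18.2, 26.7, 27.5 and 8.76 CPM with FGF2, the largest positive difference of the 8 at 1.44 ± 0.92 (SE). The ranges of both genes overlapped between the groups. *Mir7025* overlaps *Pdgfra* on the same strand and had counts in FGF2 4 only, 521, or 45.2% of the *Pdgfra* count. *Gm42803* overlaps *Pdgfra* on the other strand and had counts in PBS 3 only, 144, or 23.4% of the *Pdgfra* count. *Cnp* had 367, 310, 319 and 424 CPM with PBS and 313, 341, 195 and 229 CPM with FGF2, a log2 difference of -0.40 ± 0.23 (SE). It was -0.047 ± 0.20 within replicates 1 and 2 and -0.82 ± 0.24 within replicates 3 and 4 (SE). In the fit with a term for FGF2 by replicate pair, described below, *Cnp* had an adjusted p of 0.997 by edgeR (unadjusted p = 0.0298).

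All 8 genes overlapped between FGF2 and PBS, and 2.44% of 12744 genes did not. None of the 8 and none of all genes passed an adjusted p of 0.05 by edgeR (0%), with 223 genes at an unadjusted p under 0.05 and 117 called by DESeq2, none of them among the 8.

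*Mbp* had 35.8, 66.0, 50.0 and 10.8 CPM in the PBS libraries and 112, 111, 0 and 0 CPM in the FGF2 libraries. FGF2 1 and FGF2 2 were the highest of the 8 libraries and FGF2 3 and FGF2 4 had no count. Within replicates 1 and 2 the FGF2 libraries were thus above both PBS libraries, and within replicates 3 and 4 they were below both. With FGF2 3 and FGF2 4 each set to 3 counts, the PBS mean there was 447-fold higher, and without PBS 3 it was 159-fold higher. Reads are not independent molecules, so these folds follow from that setting and are no lower bounds. A fit with a term for FGF2 by replicate pair gave *Mbp* an adjusted p of 0.0126 by edgeR, 1 of 2 genes under 0.05 among 12744 (0.0157%; 604 at an unadjusted p under 0.05). The pairs were seen in the data and 2 of the libraries had no count, so this p is given as a description. It was above 0.05 without PBS 1 (adjusted p = 0.205), FGF2 1 (0.0966) or FGF2 2 (0.0848). Of 4748 genes with a mean level between 19.5 and 77.9 CPM over the 17 libraries, 4 (0.0842%) had at most 3 counts in 4 or more libraries, and *Mbp* was one of them.

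FGF10 was compared with the same 4 PBS libraries. *Olig1* had 626, 563 and 1436 CPM in the FGF10 libraries and *Olig2* 967, 793 and 1504 CPM, again with replicate 3 above the other two. The log2 differences from PBS were -0.32 ± 0.41 and -0.24 ± 0.31 (SE). *Nkx2-2* had 18.6, 2.02 and 8.38 CPM, overlapping the PBS range (-1.08 ± 0.90, SE). *Sox10* had 117, 71.6 and 92.9 CPM and *Pdgfra* 25.4, 38.2 and 13.2 CPM, and both overlapped the PBS values. *Cspg4* had 8.44, 13.4 and 29.1 CPM, *Mbp* 45.6, 96.8 and 56.9 CPM and *Cnp* 403, 333 and 399 CPM. No group of FGF10 values stood clear of PBS among the 8 genes, where 4.80% of 13309 genes did. None of the 8 and none of all genes passed by edgeR (0%), with 305 at an unadjusted p under 0.05 and 102 called by DESeq2, none of them among the 8.

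Between the ligands, *Nkx2-2* was the one gene of the 8 whose values did not overlap, at 25.5 to 34.8 CPM with FGF2 and 2.02 to 18.6 CPM with FGF10. Among all 13493 genes, 4.94% did not overlap. The log2 difference was 1.59 ± 0.74 (SE), with an unadjusted p of 0.0506 and an adjusted p of 1.00 by edgeR. The two-sided exact permutation p was 0.0286, the smallest that 4 against 3 libraries allow and 1 of 32 such tests, over 8 genes and 4 comparisons. The log2 difference of *Cnp* between FGF2 and FGF10 was -0.49 ± 0.25 (SE), with overlapping ranges. None of all genes passed by edgeR (0%), with 324 at an unadjusted p under 0.05 and 91 called by DESeq2, none of them among the 8. The wider lists gave no call with either ligand by edgeR or DESeq2: 0 of 11 or 12 regulators, 0 of 13 precursor genes and 0 of 12 or 13 myelin and mature genes tested in the 3 comparisons.

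Across the 5 groups, mean *Olig1* ran in the order SAG (1742 CPM), FGF2 (1147 CPM), PBS (1087 CPM), FGF10 (875 CPM) and DMSO (725 CPM), and each neighbour overlapped the next. *Olig2* had the same first 3 groups and ended with DMSO (1154 CPM) and FGF10 (1088 CPM), with overlap at each step. *Nkx2-2* was highest with SAG (47.2 CPM), and the SAG libraries lay above all FGF2 libraries (29.0 CPM on average). Mean *Sox10* was lowest with SAG (42.9 CPM), whose libraries lay below all FGF10 libraries, while the other 4 groups averaged 93.8 to 99.0 CPM. The lowest single library for *Sox10* was FGF2 3, at 34.4 CPM. SAG and the FGF groups differ in treatment, days in culture and control solution, so these orders are values side by side.

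High *Olig1* was thus found in the SAG libraries and in replicates 3 and 4 of the second experiment. Over PBS, FGF2 and FGF10 together, the 6 libraries of replicates 1 and 2 had 587 ± 42.7 CPM and the 5 of replicates 3 and 4 had 1608 ± 167 CPM (SD), a ratio of 2.74. For *Olig2* these were 880 ± 97.6 and 1814 ± 274 CPM, a ratio of 2.06. Both genes were without overlap between the sets, as were 699 of 14553 genes (4.80%), 365 higher and 334 lower in replicates 3 and 4. The other 6 genes overlapped: *Pdgfra* averaged 44.1 and 20.4 CPM, *Mbp* 77.8 and 23.5 CPM, *Sox10* 104 and 85.9 CPM, and *Nkx2-2* 20.7 and 20.6 CPM. The split was seen in the data and the labels give no batch for it, so it is given without a test.

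The 2 settings of high *Olig1* differed in *Ptch1* and shared low *Gfap*. *Ptch1* averaged 79.5 CPM in replicates 1 and 2 and 87.4 CPM in replicates 3 and 4, against 469 CPM in the SAG libraries. *Gfap* averaged 310 ± 52.5 CPM in replicates 1 and 2 and 48.0 ± 30.5 CPM in replicates 3 and 4 (SD, n = 6 and 5), beside 40.4 ± 17.7 CPM with SAG (SD, n = 3). The summed astrocyte genes were 6028 to 6784 CPM in replicates 1 and 2 and 4484 to 4818 CPM in replicates 3 and 4, and the summed neuronal genes 142 to 222 and 30.9 to 58.2 CPM. Whether these have a part in the level of *Olig1* was not tested.

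**Figure D4:**
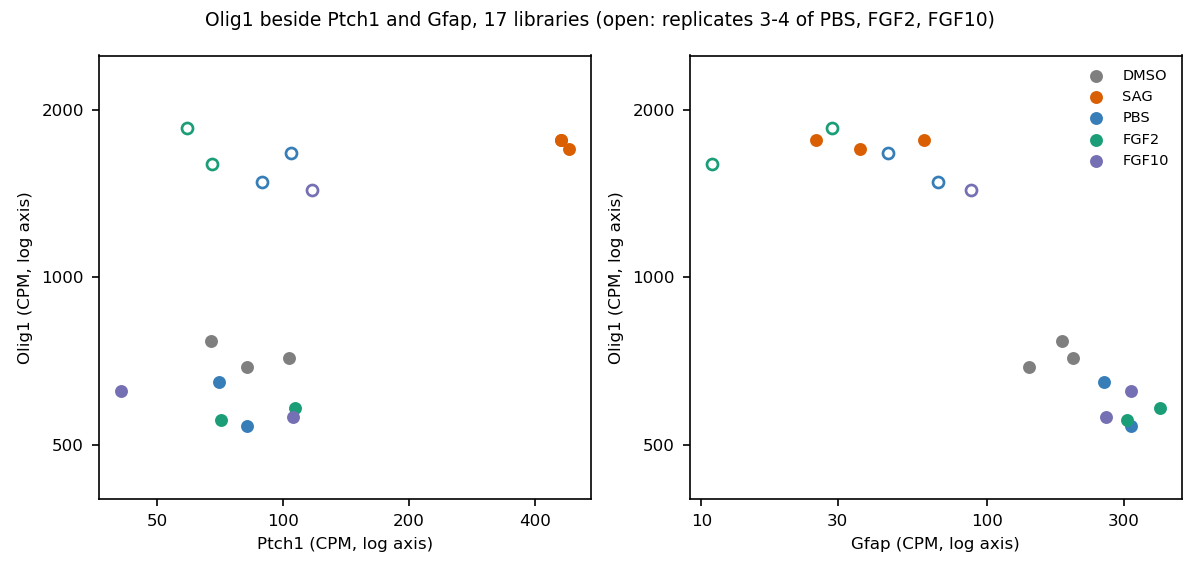
Level of *Olig1* in CPM (y axis) against that of *Ptch1* (left) and of *Gfap* (right) in CPM (x axis), all axes logarithmic, with 1 point for each of the 17 libraries, colored by group and open for replicates 3 and 4 of the FGF experiment. The SAG libraries stand apart at 461 to 482 CPM of *Ptch1*, whereas replicates 3 and 4 of the FGF experiment reach 1436 to 1854 CPM of *Olig1* at 58.7 to 118 CPM of *Ptch1*.

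The genes whose log2 levels were most like that of *Olig1* over the 17 libraries (log2 CPM), among 15458 compared, were *Ckb* (Pearson's r = 0.97), *Npm1* (0.96), *Olig2* (0.94), *Rplp1* (0.92) and *Rpl3* (0.91). With the group means subtracted they were *Ckb* (0.98), *Txn1* (0.97), *Fabp7* (0.97), *Npm1* (0.96) and *Lgals1* (0.95). *Olig1* was in turn the gene most like *Olig2* by level (0.94), whereas with the group means subtracted it came after *Tmem176b* (0.97), *Ckb*, *Acsbg1* and *Rps2*, at 0.93. The libraries fall into a low and a high cluster for *Olig1*, so these values mostly say which genes share the 2 clusters, and they are given as a description without a test. *Mbp* was most like *Lrrc23* (0.89) and *Erich3* (0.88), and no other gene of the 8 was among the 5 most like *Nkx2-2*, *Sox10*, *Pdgfra*, *Cspg4*, *Mbp* or *Cnp*.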

How the data were processed

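The data are bulk 3ʹ-end RNA-seq of 17 cultures. The authors used STAR for alignment and gene counts, and the deposited values are whole-number counts that were not normalized. The labels name GRCm38. The strand setting and any removal of PCR duplicates are not given in the sources used here. Of 56805 rows, 114 spike-in rows were left out.

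Groups came from the labels. Each comparison was fitted on its own libraries in edgeR 4.0.16 (R 4.3.3) with filterByExpr (minimum count 10, minimum total 15), TMM and the quasi-likelihood test over all genes, adjusted by Benjamini-Hochberg, and a gene was called at an adjusted p under 0.05. P-values set a group difference against the spread between these cultures, and reads are not independent molecules. The paper calls the SAG and DMSO replicates sample pools in a legend and biological replicates in its methods. The number of mice behind each culture is not given in the sources used here. The SE of a log2 difference is the absolute difference divided by the square root of the test's F statistic, not a separate estimate of the fit. Single genes were also compared by two-sided exact permutation of log2(CPM + 1). Alternatives were DESeq2 1.42.0, other filters and scalings, the study's threshold (adjusted p under 0.01, absolute log2(fold-change) above 1), all 5 groups, a replicate block, replicate pairs and each library left out. Over 21 pairs of libraries within groups, the chi-square per degree of freedom was 152 to 549, so no such pair was the same library; pairs across groups were not compared.

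The 8 genes, the lists and the replicate pairs were chosen with earlier results of these data known. From the lists, genes past the threshold and otherwise the 2 of highest mean CPM per role were named, and for each of the 8 genes those most like it, except 2 genes that are not reported here; *Gfap*, the other astrocyte genes, *Mag*, *Opalin*, *Ermn* and *Mog* were named after their values were seen. The list of marker genes per cell type is described by counts and sums.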

Additional observations from a re-analysis of the deposited data

Results flagged for a closer look

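*Sox10* in FGF2 3 stood at 34.4 CPM, apart from the 113 to 126 CPM of the other 3 FGF2 libraries. The ratio of *Olig2* to *Olig1* counts in PBS 2 was 1.74, apart from 1.06 to 1.16 in the other 3 PBS libraries. Both exceeded Dixon's limit for 4 samples, in 2 of 18 groups tested, where chance alone passes about 1 in 20.

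The fitted effect of FGF2 on *Mbp* differed between replicates 1 and 2 and replicates 3 and 4. The fitted log2 difference was -14.35 (adjusted p = 0.0126 by edgeR's quasi-likelihood test). FGF2 3 and FGF2 4 had no *Mbp* count, so the size of this fitted value depends on the prior count. It is no bound and is given without an SE. The replicate pairs were seen in the data, so the p is a description.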

How the results depend on the processing

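The count of the 8 genes called for SAG against DMSO was 1 and became 2 without a filter, 0 with all 5 groups in the fit, 4 with DESeq2 and 0 to 1 with a library left out. All genes called, 8, became 4 at the study's threshold, 76 without a filter, 42 with a mean of 10 counts, 4 with all groups, 394 with DESeq2 and 1 to 7 with a library left out (1 without DMSO 1, 2 without SAG 2 or SAG 3, 5 without DMSO 2 or DMSO 3). The cause was not tested. Of 96 values of the 8 genes in this comparison, 88 kept direction and side of the threshold, 4 lost the threshold, 4 passed it and 0 changed direction.

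In the FGF comparisons the counts were 0 and became 117 (FGF2), 102 (FGF10) and 91 (FGF2 against FGF10) with DESeq2, and 2 for FGF2 against FGF10 without a filter. Direction changed in 24 of 136, 4 of 120 and 10 of 120 values, none of them called. For FGF2 against PBS it changed for *Olig1* within replicates 1 and 2 (-0.063), for *Sox10* (-0.20), *Pdgfra* (-0.16) and *Mbp* (-13.21) within replicates 3 and 4, and for *Pdgfra* (-0.019) and *Mbp* (-3.41) with the pair as a term. With a library left out, *Olig1* ran from -0.26 to 0.36, *Olig2* from -0.041 to 0.42, *Sox10* from -0.076 to 0.34, *Pdgfra* from -0.27 to 0.30 and *Mbp* from -0.14 to 0.86. For FGF10 against PBS it changed for *Olig2* within replicates 1 and 2 (0.047), and *Sox10* ran from -0.22 to 0.17. For FGF2 against FGF10 it changed within replicates 1 and 2 for *Olig1* (-0.061) and *Mbp* (0.64), and with a library left out *Sox10* ran from -0.082 to 0.36, *Cspg4* from -0.071 to 0.89 and *Mbp* from -0.85 to 0.16. The log2 ratio of *Olig2* to *Olig1* ran from -0.032 to 0.25 (FGF10 against PBS) and from -0.091 to 0.19 (FGF2 against FGF10). The count for *Mbp* by replicate pair, 1 gene, became 0 to 1 with a library left out, an alternative chosen after seeing the data.

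Replicate numbers were not treated as pairs in the main fits. Deviations of same-numbered libraries correlated at -0.016 to 0.012 (SAG and DMSO), 0.067 to 0.089 (FGF2 and PBS), 0.036 to 0.061 (FGF10 and PBS) and 0.049 to 0.12 (FGF2 and FGF10). Those of the FGF experiment were low but all above 0. In 2 of 6 libraries (SAG and DMSO) and 12 of 20 matches of the FGF experiment the own number correlated best. The split of replicates 1 and 2 from replicates 3 and 4 would also give such matches, so they cannot show pairing by number. The replicate block gave 1 of the 8 genes and 12 genes for SAG against DMSO and 0 elsewhere. Under the block *Sox10* (-0.054), *Pdgfra* (-0.042) and *Mbp* (-3.08) for FGF2 against PBS, *Sox10* (0.026) for FGF10 against PBS and *Sox10* (-0.21) for FGF2 against FGF10 changed direction, none of them called. *Cspg4* rested on 1 and 4 counts in SAG 1 and DMSO 3. The libraries without *Mbp* counts were not the shallow ones: SAG 2 was the deepest of the 17, and FGF2 2, the shallowest, had 1940 *Mbp* counts.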
